A study of Mus musculus with 57 samples.

Results

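The Gata6 locus was taken as the DNA within 100 kb of the transcription start site (TSS) of Gata6, at position 11052064 of mouse chromosome 18 (build mm10). Its members are all CUT&RUN peaks whose summit lies in this window. The 30 peak lists analysed held 140 such peaks, of 775358 peaks in all. Overlapping peaks of any lists were merged, which gave 28 sites. Only 8 of them held a peak of both replicate lists of at least 1 group, and 17 held 1 peak of 1 list.

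GATA6 is a zinc finger transcription factor that binds GATA motifs and directs cells of the inner cell mass to the primitive endoderm (PrE). GATA4, of the same family, and SOX17 act with it in the PrE, while NANOG and SOX2 maintain the epiblast (Epi) fate. A gene for such a factor is commonly controlled by several cis-regulatory elements, some of them far from the promoter, where the factor itself and its antagonists can bind.

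CUT&RUN maps a protein on chromatin by means of an antibody that directs a nuclease to its sites. The cells were mouse embryonic stem cells with a single-copy transgene in which a bidirectional doxycycline-responsive element drives GATA6-FLAG and DsRed2. According to the time in their names, GATA6 lists stand for 0, 2, 4, 8 and 48 h after induction, NANOG and SOX2 lists for 0, 2, 4 and 8 h, and GATA4 and SOX17 lists for 24 h, with 2 lists in each of these 15 groups. Cells at 0 h grew in 2i medium, whereas induced cells were in serum medium and received doxycycline at 1 µg/mL, so the change of medium and induction cannot be told apart. Doxycycline was given only for the first 12 h, so cells at 24 and 48 h had been without it. All groups are of the same transgenic line. The transgene is a separate insertion and not the locus described here, and the GATA6 antibody does not tell its product from the endogenous protein. The study describes its replicates as independent experiments, but neither it nor the labels say whether the 2 lists of a group came from separate cultures. The p-values measure the spread between these lists.

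The number of peaks per list ran from 86 and 882 in the GATA6 0 h lists to 79358 in a GATA6 2 h list, and was 5933 and 9767 at 48 h. In the 6 lists of GATA6 at 4, 8 and 48 h the time in the peak names differs from that of the record. Time was taken from the names here. The library numbers in the peak names are those in the titles of the samples of these times. In these titles the GATA6 libraries of 2, 4 and 8 h bear the prefix DL, and both of 48 h bear JT and are marked as merged. In comparisons with 48 h, a difference between these sets of libraries cannot be told apart from time. By the records, the lists called 4, 8 and 48 h below would be 8, 48 and 4 h, which would change every order in time given for GATA6 after 2 h.

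**Figure D1:**
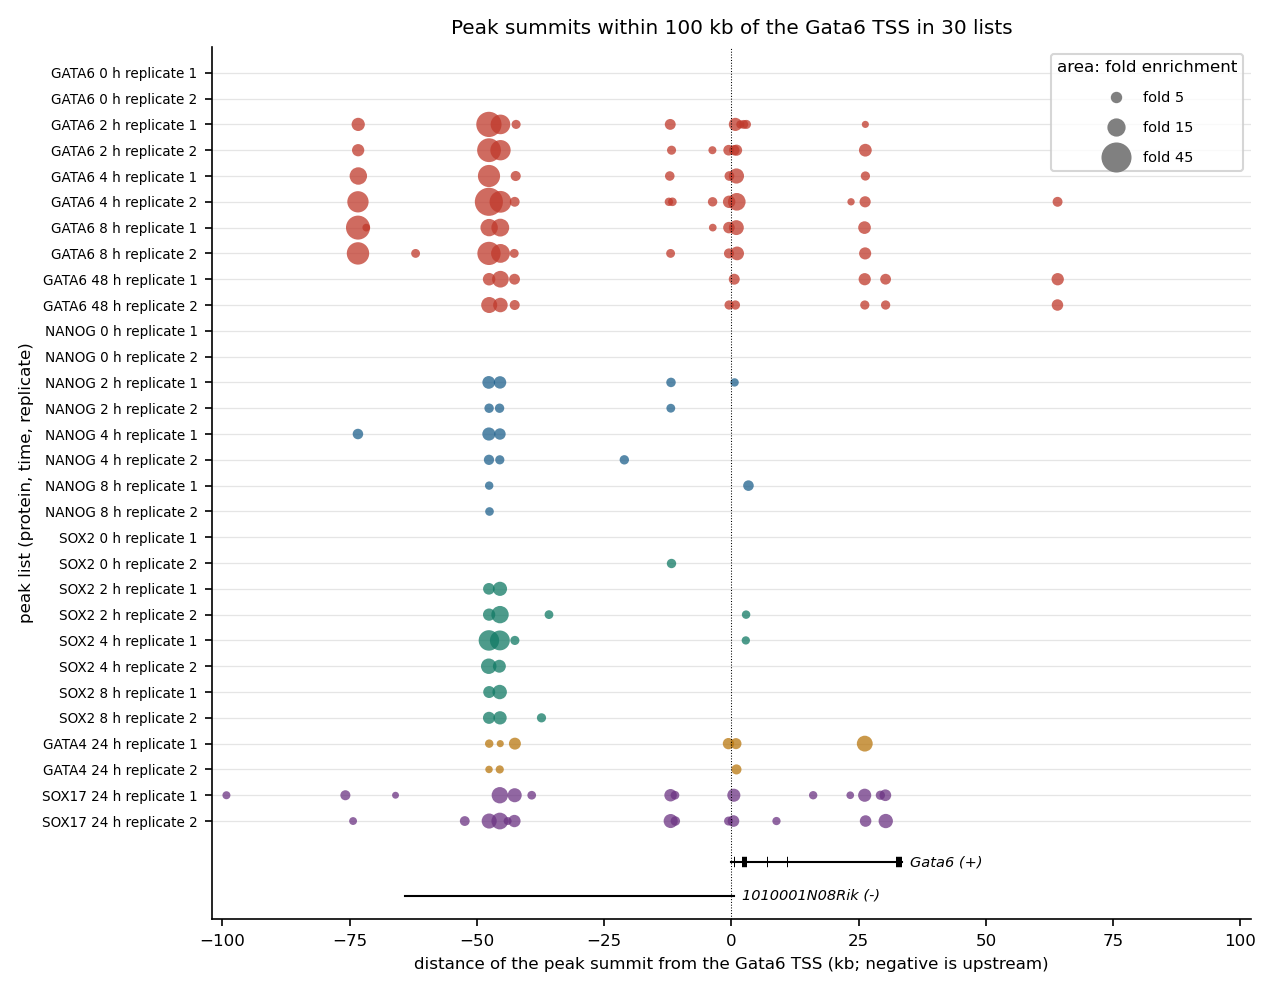
Summits of the 140 peaks by their distance from the Gata6 TSS (horizontal axis, kb) in each of the 30 lists (vertical axis), with the area of each point in proportion to the fold enrichment and the annotated genes below. The column of large points lies 47.6 and 45.5 kb upstream, and the 5 lists without a point are both GATA6 0 h lists, both NANOG 0 h lists and 1 SOX2 0 h list.

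The annotation (GENCODE vM21) places 2 genes in the window. Gata6 (ENSMUSG00000005836.10) runs on the plus strand from 11052064 to 11085635. The long non-coding RNA 1010001N08Rik (ENSMUSG00000097222.2) runs on the minus strand from 10987944 to 11052567 and overlaps the first bases of Gata6. Of the 140 peaks, 97 had their summit upstream of the TSS and 43 downstream.

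Before induction the locus was nearly empty of peaks. The GATA6 lists held 0 and 0 peaks there at 0 h, 10 and 9 at 2 h, 7 and 12 at 4 h, 8 and 9 at 8 h, and 7 and 8 at 48 h. Every list of induced cells thus held at least 7 GATA6 peaks and neither 0 h list held any, although the 0 h lists had few peaks anywhere. NANOG gave 0 and 0 peaks at 0 h, 4 and 3 at 2 h, 3 and 3 at 4 h, and 2 and 1 at 8 h. The NANOG 0 h lists were not short, with 10693 and 16180 peaks in all. SOX2 gave 0 and 1 peaks at 0 h, 2 and 4 at 2 h, 4 and 2 at 4 h, and 2 and 3 at 8 h. At 24 h GATA4 had 6 and 3 peaks and SOX17 had 14 and 13, the highest mean of any group.

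**Figure D2:**
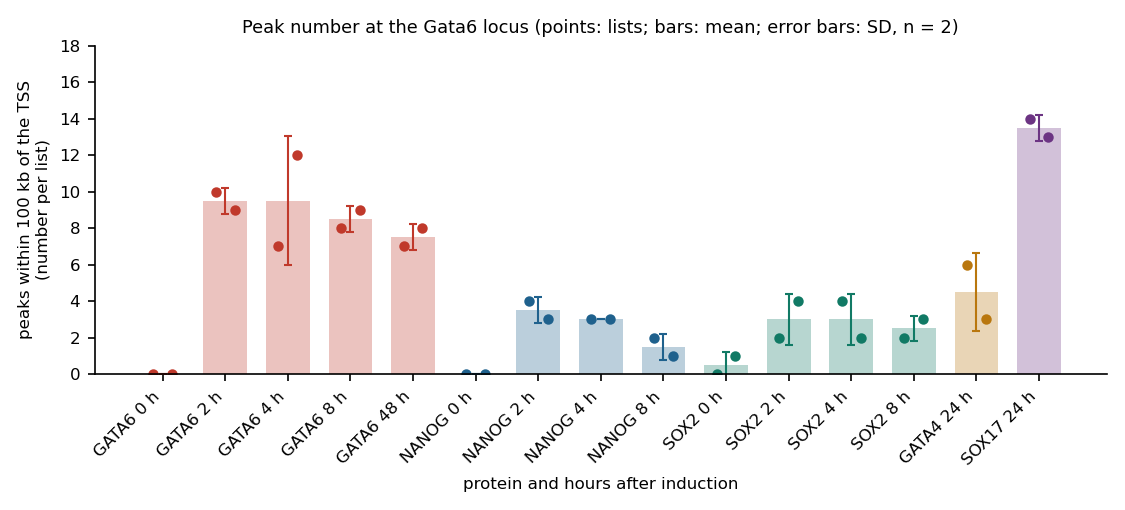
Number of peaks within 100 kb of the Gata6 TSS (vertical axis) in each list (points) by protein and time (horizontal axis), with bars at the mean and error bars of 1 SD (n = 2). GATA6 and NANOG lists start at 0, all later lists are above it, and SOX17 reaches 13.5 on average.

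Change over all time points was tested by an exact permutation test of the lists among the times, with F on log2(peak number + 1) as the statistic. For NANOG the exact test gave p = 0.0286 over 8 lists, or 0.0857 after Benjamini-Hochberg adjustment over the 3 proteins. The exact p was 0.0751 for GATA6 over 10 lists (adjusted 0.113) and 0.143 for SOX2 over 8 lists (adjusted 0.143), so none of the 3 passed 0.05 after adjustment. With the replicate number as a block the exact p was 0.0833 for NANOG, 0.117 for GATA6 and 0.25 for SOX2, and without replicate 1 of NANOG 2 h it was 0.0571 for NANOG. Without replicate 1 or 2 of GATA6 4 h it was 0.00529 and 0.0201 for GATA6. Scaled to 10000 peaks of each list the exact p was 0.00106 for GATA6, the smallest that 10 lists allow, 0.00952 for NANOG, the smallest that its 8 lists allow, and 0.019 for SOX2. These scaled p-values were not adjusted over the 3 proteins, and the scaled numbers depend on the length of the lists. Scaled NANOG rose from 0 at 0 h to 0.943 ± 0.252, 2.04 ± 0.0375 and 4.03 ± 0.569 peaks per 10000 at 2, 4 and 8 h (SD, n = 2), whereas its number at the locus was lower at 8 h than at 2 h. On that scale GATA6 rose from 1.35 ± 0.124 peaks per 10000 at 2 h to 9.99 ± 2.55 at 48 h (SD, n = 2), while the lists shortened to 11.1% of their 2 h length.

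The strongest site of the locus was a pair of summits in an intron of 1010001N08Rik, 47.6 and 45.5 kb upstream of Gata6. The merged site spans chr18:11003928-11007092, 3165 bp, and held 44 of the 140 peaks, from 24 lists. In 2 lists, GATA6 4 h replicate 1 and SOX17 replicate 1, a single broad peak covers both places and has only 1 summit. Counted by summits, neither place alone had both lists of all 12 groups of induced cells. At 47.6 kb SOX17 had a summit in 1 list. At 45.5 kb GATA6 4 h had a summit in 1 list and NANOG 8 h in neither. The merged site was the only site with peaks of both lists in all 12 groups of induced cells, and no 0 h list had a peak there. With a −log10 q of at least 5, neither NANOG 8 h list (3.01 and 3.57 at 47.6 kb) nor GATA4 replicate 2 (2.83 and 4.61) kept a peak there, so both groups dropped out. Of the 44770 GATA6 2 h regions of the genome (merged regions with a peak of both 2 h lists), 85 or 0.19% held peaks of both lists of the 11 other induced groups, and the median region did so for 2 groups. Long regions do so more often: among the 241 regions at least as long as this site it was 14, or 5.81%.

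At 47.6 kb upstream the GATA6 fold enrichment, the authors' ratio of fragments at the summit to the local background, was 36.7 and 32.6 at 2 h, 28.3 and 45.5 at 4 h, 17.4 and 31.1 at 8 h, and 9.03 and 14.8 at 48 h. These folds rest on 122 and 110 fragments over the summit at 2 h, 99 and 133 at 4 h, 80 and 99 at 8 h, and 31 and 60 at 48 h. Both 48 h lists lay below every earlier list, in fold and in fragments, and the highest fold of all 140 peaks was the 45.5 of 4 h replicate 2. The counting error of 122 fragments is 101 to 146 (exact 95% Poisson interval), and such intervals cover counting error only, as duplicate reads were kept.

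At 45.5 kb upstream GATA6 had folds of 22.2 and 23.8 at 2 h, 27.3 in replicate 2 at 4 h (in replicate 1 the broad peak), 18.3 and 20.4 at 8 h, and 16.1 and 12.2 at 48 h. The 48 h lists were again the lowest. The 48 h fold was thus higher at 45.5 kb than at 47.6 kb in replicate 1 and lower in replicate 2. Folds also fell over the genome, in the 2341 regions with a peak in every GATA6 list of induced cells. Their median was 14.4 and 11.9 at 2 h and 7.26 and 7.2 at 48 h.

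NANOG and SOX2 had peaks at both places in every list of 2 and 4 h. NANOG at 47.6 kb gave 9.39 and 5.12 at 2 h, 9.98 and 6.1 at 4 h, and 4.09 and 4.31 at 8 h (15 and 17 fragments). At 45.5 kb NANOG gave 8.96 and 5.06 at 2 h and 7.55 and 4.89 at 4 h, and no summit at 8 h in either list. The 2 replicates of NANOG 2 h differed by more than the 2 h and 4 h means did, and only the 8 h folds lay below all earlier ones.

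SOX2 at 47.6 kb gave 7.84 and 8.71 at 2 h, 24.2 and 13.8 at 4 h, and 8.28 and 8.44 at 8 h. The 4 h folds rest on 45 and 23 fragments, against 13 to 21 at 2 and 8 h. How many SOX2 regions of the genome were likewise highest at 4 h was not counted. At 45.5 kb SOX2 gave 11.6 and 17.4 at 2 h, 22.8 and 9.67 at 4 h, and 12 and 10.2 at 8 h, with overlapping times. Unlike NANOG, SOX2 kept both summits at 8 h in both lists. With 2 lists against 2 an exact test of 2 times cannot give a p below 0.333, so these differences were not tested.

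**Figure D3:**
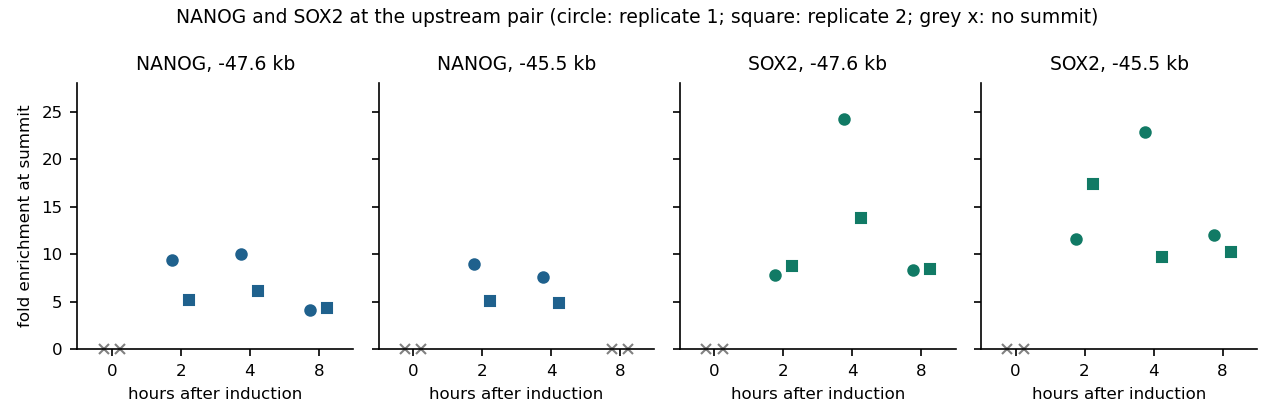
Fold enrichment at the summit (vertical axis) of NANOG and SOX2 at 47.6 and 45.5 kb upstream of the TSS by hours after induction (horizontal axis), with 1 point per list and a grey x where a list had no summit. Neither protein has a summit at 0 h, NANOG has none at 45.5 kb at 8 h, and SOX2 at 47.6 kb is highest at 4 h with 24.2 and 13.8.

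The summits of the 2 places differed in how tightly they coincided. At 47.6 kb all 23 summits, of 5 proteins, fell within 94 bp. At 45.5 kb the 7 GATA6 summits lay 45378 to 45419 bp upstream, while the 12 summits of NANOG, SOX2 and SOX17 lay 45470 to 45600 bp upstream. The GATA6 summits were thus all on the side of the gene, and the groups did not overlap. GATA4 had its 2 summits at 45426 and 45528 bp. This separation was noticed in the data and is given without a test.

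The PrE factors also shared the pair at 24 h. SOX17 had folds of 15.4 and 16.2 at 45.5 kb and 13.1 at 47.6 kb in replicate 2. GATA4 was weak at both, with 4.11 and 3.21 at 47.6 kb and 2.92 and 3.85 at 45.5 kb, all 4 at ranks of 89.3% to 99.6% of their lists from the highest fold down. In the GATA4 lists the number of fragments could not be recovered.

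A site 73.4 kb upstream, between genes at chr18:10978305-10979025, followed another course. Its GATA6 fold was 10.1 and 8.68 at 2 h, 17.5 and 26.1 at 4 h, and 33.2 and 28.9 at 8 h, with 32 and 24, 54 and 70, and 99 and 82 fragments. Each time point lay above the one before it without overlap, and at 8 h the site was the strongest of the locus in replicate 1, within the top 0.704% of that list. At 48 h neither list had a peak there. By the records, the same lists would place the highest folds at 48 h and the missing peaks at 4 h. The only other peak at the site was NANOG 4 h replicate 1 with a fold of 6.38, and neither SOX17 nor GATA4 had one.

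Because the site has no 48 h peak, it could be tested only in a fit of the 2, 4 and 8 h lists, which was added after the data were seen. In this limma fit over 16438 regions the site rose by 1.26 ± 0.27 (SE, log2 fold) from 2 to 4 h (adjusted p = 0.0217) and by 2.22 ± 0.27 from 2 to 8 h (adjusted p = 0.000176), relative to each list's median. Of all regions 24.3% changed over the 3 times by the moderated F, and 16.8% were higher and 14.4% lower at 8 than at 2 h. At 4 h 3.33% were higher and 1.28% lower than at 2 h. The loss at 48 h was common: 75.5% of the 16431 regions with peaks of both lists at 2, 4 and 8 h had none in either 48 h list.

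The sequence at this summit stood apart from the rest of the locus. GATA motifs were counted as AGATAA with its variant AGATAG, and as TGATAA with its variant TGATAG. Both strands were searched, up to 100 bp to each side of the highest GATA6 summit of a place. The window at 73.4 kb held 13 matches, all on the plus strand and within 79 bp, and 8 of them began 4 bp after another, as in a tandem repeat. Of this window 40.8% was soft-masked as repeat, and 18.3% of 2 h regions were masked to that extent. Only 0.57% of the GATA6 2 h regions held as many matches, and their median was 1. The windows of the 2 h regions were centred on the highest 2 h summit, whereas that at 73.4 kb was centred on an 8 h summit. The windows at 47.6, 45.5 and 42.6 kb upstream held 1 match each, that at 11.9 kb none, and the promoter windows 2 each, while 54.2% of all 2 h regions held at least 1. SOX motifs, counted as ACAAAG and also as ACAATG, had 2 matches at 47.6 kb, and 7.24% of 2 h regions held at least as many. They had 1 match each at 42.6 kb upstream and 30.3 kb downstream (33.9% of regions held at least 1) and none at the other windows, 45.5 kb included. Such matches are descriptions and not binding sites.

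**Figure D4:**
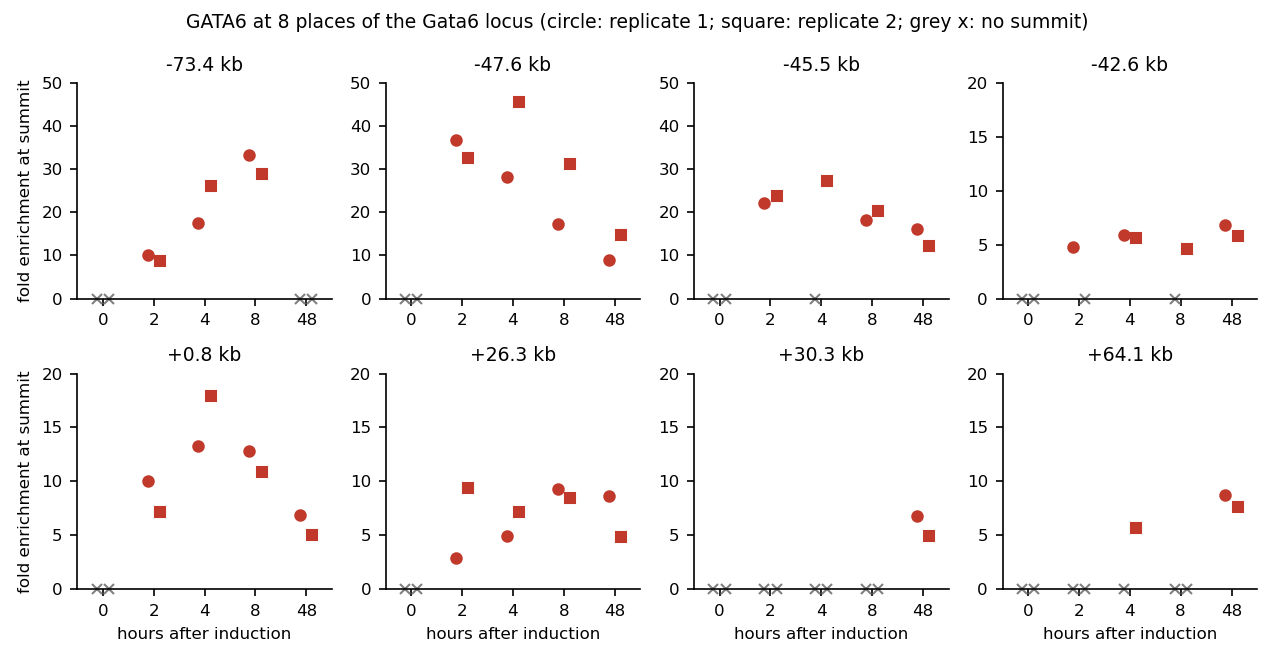
GATA6 fold enrichment at the summit (vertical axis) by hours after induction (horizontal axis) at 8 places named by their distance from the TSS, with 1 point per list and a grey x where a list had no summit. The fold at -73.4 kb climbs to 33.2 and 28.9 at 8 h and has no 48 h peak, that at -47.6 kb is lowest at 48 h, and +30.3 kb has peaks at 48 h only.

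The promoter site, chr18:11051238-11053495, held 22 peaks of 13 lists around 2 places, 0.5 kb upstream of the TSS and about 0.8 kb downstream of it in an untranslated part or an intron of Gata6. At the downstream place the highest GATA6 fold was 10 and 7.18 at 2 h, 13.3 and 17.9 at 4 h, 12.8 and 10.9 at 8 h, and 6.91 and 4.99 at 48 h. The 4 and 8 h lists lay above those of 2 h, and the 48 h lists below. SOX17 had 9.88 and 7.83 there and GATA4 7.05 and 5.88. NANOG had a single weak peak, of 4.06 in 2 h replicate 1, and SOX2 had none in any list. In the fit over 2, 4 and 8 h the promoter rose by 0.97 ± 0.27 (SE, log2) from 2 to 8 h (limma, adjusted p = 0.0146). The moderated F over these 3 times gave an adjusted p of 0.0238, and without centring of 0.112 (limma).

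In the fit over 2, 4, 8 and 48 h, only 3 sites of the locus had a GATA6 peak in every list and could be tested. By limma's moderated F none was called (adjusted p = 0.457 at the upstream pair, 0.08 at the promoter and 0.102 at 26.3 kb downstream) and none had an unadjusted p under 0.05, whereas 58.7% of the 2341 regions tested were called. The fit used the highest fold of each list in a site. At the upstream pair this was the 45.5 kb summit in replicate 1 of 8 h (18.3) and of 48 h (16.1). In the other lists it was the 47.6 kb summit, so the fall at 47.6 kb alone was not tested. The highest fold of the pair was lower at 48 h than at 2 h by a log2 difference of -0.31 ± 0.28 (SE) relative to each list's median. That median fell from 14.4 and 11.9 at 2 h to 7.26 and 7.2 at 48 h. Without centring, the pair fell by 1.17 ± 0.34 on the log2 scale (adjusted p = 0.00333), and the pair and the promoter passed the F test.

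Of the remaining sites, 2 held peaks of both 48 h lists and no 2 h peak. In an intron of Gata6 30.3 kb downstream of the TSS, GATA6 had folds of 6.74 and 4.96 at 48 h and no peak at any earlier time. SOX17 had 7.92 and 11.8 at this place. At 64.1 kb downstream, beyond the 3′ end of the gene, GATA6 had 8.76 and 7.61 at 48 h, besides a peak of 5.68 in 4 h replicate 2, and no other protein had a peak. The GATA6 48 h peaks of both sites rest on 10 to 16 fragments each. Among all 4177 GATA6 48 h regions 28.6% lacked a peak of either 2 h list and 20.1% lacked one at 2, 4 and 8 h, compared with 2 and 1 of the 6 sites here.

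The site 42.6 kb upstream held weak GATA6 peaks, of 4.77 in replicate 1 at 2 h, 5.88 and 5.62 at 4 h, 4.61 in replicate 2 at 8 h, and 6.8 and 5.81 at 48 h. SOX17 was stronger there, with 11.4 and 8.8, and GATA4 replicate 1 had 8.25. At another intronic site, 26.3 kb downstream, GATA6 gave 2.92 and 9.4 at 2 h, 4.9 and 7.19 at 4 h, 9.25 and 8.45 at 8 h, and 8.61 and 4.88 at 48 h. The 2 h replicates enclosed all later values. Without replicate 1 of 2 h the site passed limma's F over 2, 4, 8 and 48 h with an adjusted p of 0.045, and without replicate 2 with 0.00317, but the difference between 8 and 2 h was -0.08 in log2 fold in the one case and 1.84 in the other. SOX17 had 9.95 and 7.7 at that site. GATA4 replicate 1 had 14.5, the highest GATA4 fold of the locus and within the top 1.61% of that list, while replicate 2 had no peak.

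At 11.9 kb upstream, in the same long non-coding RNA, lay the only peak of the locus in uninduced cells, in SOX2 0 h replicate 2, with a fold of 5.08 on 7 fragments. NANOG at 2 h gave 5.19 and 4.5 there, GATA6 6.84 and 4.74 at 2 h, and SOX17 8.96 and 11.4. All but the SOX17 peaks rest on 15 fragments or fewer.

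Sharing between the proteins was then set beside the genome. Of the 5 GATA6 2 h sites of the locus (73.4, 47.6 with 45.5, and 11.9 kb upstream, the promoter, and 26.3 kb downstream), none held a peak of both GATA6 0 h lists (0.0067% of regions in the genome), 5 held peaks of both 4 h lists, 4 of both 8 h lists and 3 of both 48 h lists. Among all 44770 GATA6 2 h regions the shares at 4, 8 and 48 h were 63.8%, 38% and 5.79%. Both SOX17 lists shared 4 of the 5 sites (25.4% of all regions) and both GATA4 lists 2 (5.61%). NANOG 2 h shared 2 (36.8%) and SOX2 2 h shared 1 (33.5%), while NANOG 0 h and SOX2 0 h shared none (13.2% and 26.1%). NANOG at 4 and 8 h shared 1 each (15.1% and 1.08%), as did SOX2 at 4 and 8 h (35.7% and 15%), and in all these cases it was the upstream pair. The counts at the locus are small, and with 2 of 5 NANOG 2 h lies near its background.

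NANOG at 2 h had 2 reproducible sites at the locus, and both held GATA6 2 h peaks and no 0 h NANOG peak. Over the genome 87.4% of the 18868 NANOG 2 h regions held peaks of both GATA6 2 h lists and 50.7% lacked a NANOG peak at 0 h. The upstream pair was the 1 site that also held NANOG in both 8 h lists, which 2.55% of NANOG 2 h regions did. For SOX2, the pair was the only 2 h site, without a SOX2 peak at 0 h (34.8% of 17886 regions) and with SOX2 in both 4 h lists (65.6%), both 8 h lists (28.4%) and GATA6 in both 2 h lists (83.9%).

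The 6 GATA6 48 h sites held peaks of both SOX17 lists in 5 cases (73.1% of the 4177 GATA6 48 h regions), of both GATA4 lists in 2 (40.2%), of NANOG 2 h in 1 (33.3%) and of SOX2 2 h in 1 (28.7%). Of the 4 sites with GATA6 in both lists at 2, 4 and 8 h, 3 also held both 48 h lists (14.3% of 16431 regions). SOX17 had 6 sites with both lists, and 5 of them held both GATA6 48 h lists (16% of 19084 SOX17 regions) and 4 both GATA6 2 h lists (59.5%). None of the 6 lacked a GATA6 peak altogether (18%). GATA4 had 2 such sites, the upstream pair and the promoter, and both held GATA6 48 h (54% of 3110 GATA4 regions) and SOX17 peaks (82.1%).

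Peaks also fell on the coding sequence of Gata6. The study's methods for RNA-seq describe the transgene as made of the Gata6 coding sequence alone, and assign reads of that sequence to the transgene as well as to the gene. In the second exon of Gata6 4 peaks of 3 lists overlapped coding bases, with folds of 3.96 to 4.7 on 5 to 10 fragments. They were in GATA6 2 h replicate 1, SOX2 2 h replicate 2 and SOX2 4 h replicate 1. No list of 0 h had such a peak. In these lists too, fragments of the transgene and of the endogenous exon cannot be told apart.

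The number of peaks around Gata6 was compared with other genes by the same 100 kb window. At 2 h the mean of 9.5 GATA6 peaks was a common one, with at least as many at 39.2% of 21911 protein-coding genes. At 8 h it was 8.5 (10.5% of genes), and at 48 h 7.5, a number that only 54 genes (0.246%) reached, against a median of 0.5. SOX17 with 13.5 stood at 6.53% and GATA4 with 4.5 at 1.83%. Before induction Gata6 had fewer peaks than the median gene, with 0 against 1 for NANOG and 0.5 against 3 for SOX2.

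**Figure D5:**
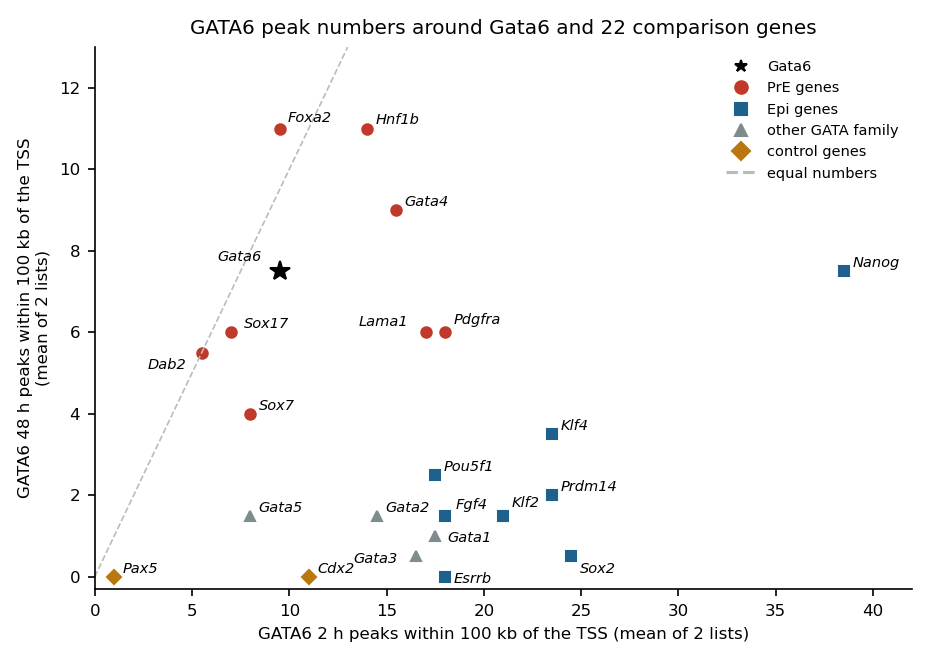
Mean GATA6 peak number within 100 kb of the TSS at 48 h (vertical axis) against 2 h (horizontal axis) for Gata6 and 22 comparison genes, each point the mean of 2 lists. Gata6 (9.5 at 2 h and 7.5 at 48 h) lies among the PrE genes, while the Epi genes lie to the right and mostly below, with Nanog highest among them at 7.5 for 48 h.

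The number at 48 h was 78.9% of that at 2 h for Gata6. For the 8 PrE genes this share ran from 33.3% at Pdgfra, a receptor kinase, to 116% at Foxa2, a forkhead factor, with a median of 68.3%. For the 8 Epi genes it ran from 0% at Esrrb, an orphan nuclear receptor, to 19.5% at Nanog, with a median of 8.42%. The groups did not overlap, and the lists as a whole shrank to 11.1%. Within the GATA family, Gata4, which is also in the PrE list, had 58.1%, while Gata1, Gata2, Gata3 and Gata5 had 3.03% to 18.8%. The 2 control genes Cdx2 and Pax5 had none at 48 h.

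NANOG before induction was absent around Gata6, Gata4 and Sox17 in both lists, and the 8 Epi genes had 2 to 7.5 peaks on average. By the profile over 14 groups (log2 of the mean peak number + 1, without GATA6 0 h), the genes most like Gata6 among 14077 candidates lay side by side on chromosome 14. These were 4930578I06Rik and Rp1l1, both with r = 0.97, and Sox7, with r = 0.947, a SOX factor of the PrE. Their windows share most peaks, so they count as 1 neighbourhood, and these correlations over 14 groups are descriptions.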

How the data were processed

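Peaks were analysed from 30 lists of 57 samples; the other 27 samples were not analysed here. The authors aligned paired reads to mm10 with Bowtie2, removed blacklisted reads, kept duplicates and called narrow peaks with MACS in each library against a control library. The deposited values are the fold at the summit, a ratio of (fragments + 1) to (background + 1), and the −log10 p and q, all with q up to 0.05. The deposited summit offset, in bp, placed each peak. Fragments at the summit were recovered as whole numbers (within 0.002 in −log10 p) for 131 of 140 peaks. The depth of the libraries was not given in these lists.

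Peaks sharing 1 bp were merged. A site belonged to a group if both lists had a peak. Peak numbers were tested over time by an exact permutation test (upper tail of F, all arrangements) on log2(number + 1), adjusted over 3 proteins. GATA6 log2 folds, centred on each list's median, were fitted by limma 3.58.1 (R 4.3.3) over regions with a peak in every list, with Benjamini-Hochberg adjustment and a threshold of 0.05. Where a list had several peaks in a merged region, the highest fold was used. Statistics were checked on simulated data. Genes came from GENCODE vM21. Named genes were those in the window, lists of GATA family, PrE, Epi and control genes, and the 3 genes over 200 kb away with the most similar profile. The members and lists were chosen with earlier results of these data known. Alternatives were a −log10 q of at least 5, a 50 kb window, numbers per 10000 peaks, time by the record, summits within 300 bp, either list, no centring, a replicate block and each list left out. Fits of 2, 4 and 8 h alone were chosen after seeing the data.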

Additional observations from a re-analysis of the deposited data

How the results depend on the processing

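Scaled per 10000 peaks of each list, the log2 difference in peak number between 2 and 0 h was 1.23 for GATA6 (exact permutation p = 0.00106), 0.953 for NANOG (exact p = 0.00952) and 0.616 for SOX2 (exact p = 0.019). For NANOG it was 1.79 with a −log10 q of at least 5 (exact p = 0.171) and 2.16 with the replicate block (exact p = 0.0833). With each list left out in turn it ran from 3.32 to 3.46 for GATA6 (exact p from 0.00529 to 0.103), from 2.0 to 2.32 for NANOG (0.0286 to 0.0571) and from 0.953 to 1.95 for SOX2 (0.143 to 0.543). All exact p-values of this paragraph are unadjusted.

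The number of GATA6 2 h sites was 3 with the stricter q, and 6 to 9 with 1 of the 2 lists left out. With the stricter q, peaks of GATA6 4 h were at 3 of those sites, SOX17 at 2, NANOG 2 h at 1, and NANOG 8 h and GATA4 at 0. With summits joined within 300 bp, NANOG 4 h and SOX2 at 2, 4 and 8 h were at 2 of 6 sites each. Counting either list, NANOG 4 h was at 2 sites and SOX2 0 h at 1. By the record, GATA6 4 h was at 3.

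Of the sites tested by limma, 2 were called without centring, 2 in the fit of 2, 4 and 8 h, 2 in that fit with the replicate block, 1 in that fit without centring, and 0 to 1 with each list left out. Without centring the promoter differed by -0.53 in log2 fold between 48 and 2 h, against 0.32 with it, the sign turning with the lists' medians. At 26.3 kb downstream the 8 h difference ran from -0.08, without replicate 1 of 2 h, to 1.84. The block changed no other call. Replicate numbers did not pair the GATA6 lists of 2, 4, 8 and 48 h: differences between replicates correlated by -0.0336 to -0.000774 over 6 pairs of times. The NANOG and SOX2 lists were not checked for pairing.

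The lists hold only peaks past the calling threshold, so a place without a peak has no value, and weak peaks rest on as few as 5 fragments. Groups of 2 lists allow no exact p below 0.333 between 2 time points.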

Other observations

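The GATA repeat 73.4 kb upstream of Gata6 had counterparts over the genome. The limit of 13 or more matches was the number found at that site, and so was chosen after its value was seen. With as many matches within 100 bp of the highest 2 h summit, 214 regions had GATA6 peaks in both lists at 2, 4 and 8 h. Of these, 211 (98.6%) had no 48 h peak. Of all regions with GATA6 peaks in both lists at 2, 4 and 8 h, 75.5% had none. For the fit over 2, 4 and 8 h, matches were counted around the highest summit of any of these times. The place of the window thus depended on the folds that were compared. Of the 273 fitted regions with as many matches, 179 (65.6%) were higher at 8 than at 2 h (limma, adjusted p under 0.05). Of the same regions 1 was lower, and the median log2 difference was 1.04. Among 10256 regions with 1 to 4 matches 17.6% were higher and the median was 0.07, and among 5437 without a match 8.83% were higher and the median was -0.21. The site at Gata6, at 2.22, is itself among the 273. How reads that map to repeats bear on these values was not tested.

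Of the 17 sites at Gata6 seen in 1 list only, 10 were of SOX17, 4 of GATA6, 2 of SOX2 and 1 of NANOG, with folds of 2.76 to 5.82.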
